A study of Mus musculus with 18 samples.

Results

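RNA polymerase II occupancy of the autosomes was compared between ventricles of *Trdn-as* KO and WT mice, with 2 ChIP-seq libraries per genotype. The regions were chosen by position: of the 101256 regions called as peaks in any library of the series, 99157 lie on chromosomes 1 to 19 outside an interval around the *Trdn* gene (chromosome 10 from 32951550 to 33357705, GRCm39), which was set aside with its 31 peaks because the edited *Trdn-as* locus lies in it. Of these regions, 37441 are annotated as promoter peaks, within 5000 nt of a transcription start site, and 61716 are called distal here. A promoter peak in this sense need not cover the start. WT mice carry no edit, and *Trdn-as* KO mice are homozygous for a polyA signal inserted with Cas9 into the first exon of *Trdn-as*, an antisense lncRNA gene. The line was made from embryonic stem cells, and chimeras were backcrossed to C57BL/6. Chromatin was prepared from snap-frozen ventricles of 2 pooled adult hearts, and age and sex are not given per library. A further pair of libraries from Mettl3lox/lox:alphaMHC-MerCreMerpos hearts (*Mettl3* KO), in which tamoxifen and a Cre driven by the cardiomyocyte alphaMHC promoter remove *Mettl3*, entered the statistical model to estimate the spread and is given beside the results. All 10 cardiomyocyte markers, among them *Myh6*, *Tnnt2* and *Ryr2*, passed the filter on low values, as did 6 of 16 genes of skeletal muscle isoforms, with *Mylpf* the highest of these (267 and 273 in WT).

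RNA polymerase II is the enzyme that transcribes protein-coding genes and most lncRNA genes. It gathers in front of and just after the transcription start, where it pauses before elongation, so that a ChIP-seq signal at a promoter reports bound polymerase and not the amount of RNA. Distal signal can stem from enhancers, which are transcribed at a low level, or from polymerase travelling through highly transcribed genes. CTCF, the other protein measured in the series, is a zinc finger protein that binds a fixed motif and shapes chromatin loops.

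The 2 WT libraries had 38.5% and 42.4% of their uniquely mapped reads in peaks. The first *Trdn-as* KO library had 35.5% and the second 18.6%, compared with 39.4% and 42.6% in *Mettl3* KO and between 4.91% and 5.71% in the IgG libraries, 1 per genotype. The second *Trdn-as* KO library held an estimated 1987608 reads in peaks and the other RNA polymerase II libraries between 3209039 and 4954240. Values given below are the deposited normalized signal, in which 3 reads were worth 4.08 and 2.83 in WT and 3.44 and 6.11 upon *Trdn-as* KO. At the 6 peaks of the Y chromosome the value summed to 279 and 326 in WT and to 0 in both *Trdn-as* KO libraries. Sex and genotype can therefore not be told apart in any result below, and a bulk ventricle cannot tell fewer cells of a type from less polymerase per cell.

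Promoters are printed of the genes on which the results turn: *Myh6*, *Ankrd1*, *Txnip*, *Per1* and *Ceacam1*, with lower RNA polymerase II in *Trdn-as* KO, and *Sdf2l1* and *Zfp30*, with higher. They are RefSeq sequences of GRCm38.p6, matched by symbol, from 250 bases before to 50 bases after the start, 5′ to 3′. The peaks are in GRCm39, so windows were not placed in them by coordinates, but by the annotated distance from peak centre to start each of these peaks spans its gene's start. The promoter of *Olfml2b* is not printed, since the centre of its peak of 1401 nt lies 3601 nt from the start. Other called promoter peaks named below also do not reach the start by this distance. They are those of *Gm16589*, *Tmem100*, ENSMUSG00000120701, *St3gal4*, *Lefty1*, *Snap91*, *AC141882.1*, *4933439K11Rik* and *Lgals4*. The same holds for the weaker peaks of *Myoz2*, *Myom2* and *Col3a1*, the first *Ogdhl* peak and the second peak of ENSMUSG00000121240. Capitals mark motifs searched on both strands. CACGTG is the E-box of clock and glucose-responsive factors. CATTCC is the site of TEAD factors. AGATAA is a site of GATA factors. CCAAT is bound by the factor NF-Y. TATAAA is the core of the TATA box.
Myh6: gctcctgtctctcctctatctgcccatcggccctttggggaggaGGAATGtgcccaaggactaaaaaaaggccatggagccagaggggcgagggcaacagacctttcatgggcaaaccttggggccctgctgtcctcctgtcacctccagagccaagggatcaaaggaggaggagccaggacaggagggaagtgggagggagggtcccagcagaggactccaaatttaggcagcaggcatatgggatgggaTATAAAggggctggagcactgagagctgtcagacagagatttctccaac
Ankrd1: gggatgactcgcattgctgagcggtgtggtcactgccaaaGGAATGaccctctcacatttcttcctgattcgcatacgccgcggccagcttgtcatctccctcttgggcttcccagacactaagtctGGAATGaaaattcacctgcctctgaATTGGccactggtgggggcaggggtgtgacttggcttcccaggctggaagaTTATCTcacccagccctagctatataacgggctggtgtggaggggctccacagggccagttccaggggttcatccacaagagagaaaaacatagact
Txnip: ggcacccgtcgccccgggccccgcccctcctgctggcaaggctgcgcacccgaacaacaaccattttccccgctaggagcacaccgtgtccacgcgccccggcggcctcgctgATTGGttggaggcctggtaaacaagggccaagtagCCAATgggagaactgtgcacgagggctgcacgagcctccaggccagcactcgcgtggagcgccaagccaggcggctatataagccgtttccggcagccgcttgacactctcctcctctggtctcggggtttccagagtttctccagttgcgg
Per1: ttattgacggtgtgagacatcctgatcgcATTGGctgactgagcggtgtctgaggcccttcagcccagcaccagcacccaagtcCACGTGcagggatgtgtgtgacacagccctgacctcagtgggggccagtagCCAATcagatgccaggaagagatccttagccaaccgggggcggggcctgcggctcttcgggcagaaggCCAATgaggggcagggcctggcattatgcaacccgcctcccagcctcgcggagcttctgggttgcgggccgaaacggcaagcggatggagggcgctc
Ceacam1: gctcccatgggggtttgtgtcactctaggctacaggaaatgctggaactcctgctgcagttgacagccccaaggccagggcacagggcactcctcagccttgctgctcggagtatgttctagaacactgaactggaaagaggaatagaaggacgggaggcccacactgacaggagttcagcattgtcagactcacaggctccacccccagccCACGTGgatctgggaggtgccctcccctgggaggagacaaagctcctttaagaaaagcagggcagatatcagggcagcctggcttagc
Sdf2l1: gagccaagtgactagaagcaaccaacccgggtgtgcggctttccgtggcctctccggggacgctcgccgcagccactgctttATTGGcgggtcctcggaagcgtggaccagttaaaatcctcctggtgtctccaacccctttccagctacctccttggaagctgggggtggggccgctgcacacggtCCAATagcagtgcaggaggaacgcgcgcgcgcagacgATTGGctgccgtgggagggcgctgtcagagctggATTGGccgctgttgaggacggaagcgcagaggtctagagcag
Zfp30: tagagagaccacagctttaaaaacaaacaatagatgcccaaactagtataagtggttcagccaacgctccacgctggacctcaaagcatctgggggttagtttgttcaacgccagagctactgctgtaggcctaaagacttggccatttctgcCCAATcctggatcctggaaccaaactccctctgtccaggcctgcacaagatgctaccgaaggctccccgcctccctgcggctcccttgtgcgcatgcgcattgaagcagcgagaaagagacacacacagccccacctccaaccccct
The *Myh6* promoter is on chromosome 14 from 54966558 to 54966857 (minus strand), *Ankrd1* on 19 from 36119795 to 36120094 (minus), *Txnip* on 3 from 96557707 to 96558006 (plus) and *Per1* on 11 from 69098699 to 69098998 (plus). *Ceacam1* is on 7 from 25477576 to 25477875 (minus), *Sdf2l1* on 16 from 17132334 to 17132633 (minus) and *Zfp30* on 7 from 29783718 to 29784017 (plus). The printed *Per1* promoter has a CACGTG 166 bases before its start and *Ceacam1* 38 bases before, and *Ankrd1* has CATTCC on the minus strand 210 and 123 bases before its start. A further RefSeq promoter of *Per1*, on chromosome 11 from 69099902 to 69100201 (plus), holds no CACGTG and is not printed. Among 28 RefSeq promoters of 23 genes with a lower promoter peak, 14.3% hold CACGTG, against 9.35% of 12457 promoters of genes with a tested promoter peak and 7.15% of all 32851 promoters. For CATTCC the shares are 10.7%, 13.1% and 14.7%, for AGATAA 7.14%, 6.89% and 11.2%, for CCAAT 46.4%, 36.8% and 37.4% and for TATAAA 14.3%, 7.95% and 13.6%. Of 12 promoters of 10 genes with a higher promoter peak, 0 hold CACGTG, 3 CATTCC (25%), 1 AGATAA (8.33%), 4 CCAAT (33.3%) and 1 TATAAA (8.33%). A match is a description of letters only.

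Across the autosomes, 134 of 51794 tested peaks passed an adjusted p of 0.05 for *Trdn-as* KO against WT (0.259%, limma on log2(value + 1) with Benjamini-Hochberg adjustment over all 52655 tested peaks of the table, of which 160 or 0.304% passed). RNA polymerase II was lower in *Trdn-as* KO at 107 of them (0.207%) and higher at 27 (0.0521%). Promoters made up 60 of the peaks (0.245% of those tested) and distal peaks 74 (0.271%). The size of the difference ran from 0.35 to 5.49 on the log2 scale with a median of 1.58. The median of the signed difference over all tested peaks was -0.07. At all 134 peaks the values of the genotypes did not overlap, with both *Trdn-as* KO libraries above or both below WT. Over all tested peaks this was so at 19.2% for lower and 12.8% for higher values.

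The number of peaks depended on the libraries in the model. With only the 4 libraries of WT and *Trdn-as* KO, 26 peaks passed, 12 higher and 14 lower, 23 of them among the 134. Without the second *Trdn-as* KO library 32 passed (11 higher, 21 lower), and without the first 1867 passed, 23 higher and 1844 lower. Leaving out a library of WT or *Mettl3* KO left between 10 and 18 peaks. Of the 134 peaks, 26 passed without either *Trdn-as* KO library in turn, 5 higher and 21 lower, and 8 passed whichever of the 6 libraries was left out. These 8 were the promoter peaks of *Hist1h2al*, *Olfml2b* and *Gm11942* and the distal peaks near *Elovl7*, *Malt1* and *Hnrnpa3* and in *Pde11a* and *Gm36210*, the last of which was the one with a higher signal. No peak of the 134 changed its direction under another scaling or with IgG subtracted. Under the other alternatives none could, because the values of the genotypes did not overlap at these peaks.

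Several decreases at promoters left little RNA polymerase II in *Trdn-as* KO. At *Hist1h2al* (ENSMUSG00000091383, annotated as a processed pseudogene; peak on chromosome 13 from 51356753 to 51357205) the value was 102 and 81 in WT and 2 and 6 upon *Trdn-as* KO, with 79 and 104 upon *Mettl3* KO. The log2 difference was -4.33 (SE 0.38, adjusted p = 7.9e-13, limma). The processed pseudogenes *Gm11942* on chromosome 4 (52 and 46 in WT, 0 and 2 upon *Trdn-as* KO) and *Gm16589* on chromosome 8 (41 and 30, then 0 and 2) also fell, and both *Trdn-as* KO libraries were within the value of 3 reads. A processed pseudogene is a copy of a spliced RNA put back into the genome, and reads of its source gene can map to it, so its values are uncertain. Pseudogenes of any kind held 6 of the 60 promoter peaks and 1007 of the 24471 tested.

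Among protein-coding genes, *Olfml2b*, which encodes a secreted olfactomedin-like matrix protein, had the smallest adjusted p. Its promoter peak (ENSMUSG00000038463, chromosome 1 from 170475002 to 170476402) had 154 and 200 in WT, 24 and 39 upon *Trdn-as* KO and 150 and 173 upon *Mettl3* KO. The log2 difference was -2.48 (SE 0.26, adjusted p = 5.1e-10, limma), and it passed without either *Trdn-as* KO library (adjusted p of 0.00157 without the first and 6.07e-04 without the second). At *Ceacam1*, a cell adhesion receptor (ENSMUSG00000074272, chromosome 7 from 25176564 to 25177353), the values were 113 and 112 in WT, 31 and 18 upon *Trdn-as* KO and 98 and 107 upon *Mettl3* KO (log2 difference -2.20, SE 0.29, adjusted p = 7.4e-07). *Ogdhl*, a relative of the mitochondrial 2-oxoglutarate dehydrogenase (chromosome 14 from 32044444 to 32045643), had 64 and 76 in WT and 7 and 18 upon *Trdn-as* KO, and a neighbouring promoter peak of the same gene had 63 and 62 against 16 and 16. In these genes the WT libraries were 3 or more times the KO libraries, and the *Mettl3* KO values lay at or near WT except at *Ogdhl*, where one peak had 48 and 35.

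Promoter peaks of lncRNA genes without a symbol also fell, of which those named by the rule are given. ENSMUSG00000121240 (chromosome 11 from 90020436 to 90021427) had 118 and 132 in WT, 32 and 20 upon *Trdn-as* KO and 44 and 35 upon *Mettl3* KO (log2 difference -2.26, SE 0.32, adjusted p = 3.6e-06). It lies in a stretch of 96741 nt with 4 lower peaks among 7 tested, the others being a second promoter peak of the lncRNA, a distal peak whose nearest coding gene, *Smim36*, is 63515 nt away, and the promoter peak of *Tmem100* (74 and 73 in WT, 14 and 29 upon *Trdn-as* KO). ENSMUSG00000120701 (chromosome 19 from 36087544 to 36091266) adjoins *Ankrd1* and had 424 and 457 in WT, 245 and 187 upon *Trdn-as* KO and 345 and 331 upon *Mettl3* KO (log2 difference -1.04, SE 0.18, adjusted p = 3.4e-04). At *Thoc1*, a subunit of the THO complex that couples transcription to mRNA export (chromosome 18 from 9957639 to 9958621), the values were 417 and 428 in WT, 275 and 175 upon *Trdn-as* KO and 484 and 538 upon *Mettl3* KO (adjusted p = 0.0019, limma). It did not pass without the second *Trdn-as* KO library (0.0871).

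Several genes with a high RNA polymerase II signal in WT had smaller decreases. *Txnip*, which encodes a glucose-responsive inhibitor of thioredoxin, had 3711 and 3610 in WT, 2830 and 2244 upon *Trdn-as* KO and 4172 and 4312 upon *Mettl3* KO (ENSMUSG00000038393, chromosome 3 from 96462005 to 96472413). The log2 difference was -0.54 (SE 0.10, adjusted p = 0.0015). It passed without the first *Trdn-as* KO library (adjusted p = 1.1e-05) and without the second (0.00107), but not with only 4 libraries (0.577). *Ankrd1*, a stress-responsive cofactor of cardiac muscle (chromosome 19 from 36091542 to 36098050), had 765 and 898 in WT, 607 and 419 upon *Trdn-as* KO and 879 and 882 upon *Mettl3* KO (log2 difference -0.72, SE 0.15, adjusted p = 0.0086). *Myh6*, the alpha myosin heavy chain of the adult mouse ventricle (chromosome 14 from 55181949 to 55214903), had 10654 and 11527 in WT, 9901 and 7625 upon *Trdn-as* KO and 11283 and 11566 upon *Mettl3* KO (log2 difference -0.35, SE 0.08, adjusted p = 0.029). *Per1*, a repressor of the daily clock (chromosome 11 from 68982810 to 68991417), had 2240 and 2322 in WT, 1812 and 1494 upon *Trdn-as* KO and 1531 and 1572 upon *Mettl3* KO (log2 difference -0.47, SE 0.11, adjusted p = 0.042). In all 4 genes the second *Trdn-as* KO library was the lowest. Without it the log2 differences were -0.37 at *Txnip*, -0.45 at *Ankrd1*, -0.16 at *Myh6* and -0.33 at *Per1*. With only 4 libraries *Ankrd1*, *Myh6* and *Per1* did not pass either (adjusted p = 0.606, 0.816 and 0.775, limma).

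Higher promoters were fewer. *Gm38293*, a lncRNA gene on chromosome 1 (peak from 180595444 to 180597122), had 52 and 57 in WT, 186 and 145 upon *Trdn-as* KO and 99 and 82 upon *Mettl3* KO (log2 difference 1.57, SE 0.26, adjusted p = 1.2e-04, limma). *Sdf2l1*, a component of a chaperone complex of the endoplasmic reticulum (ENSMUSG00000022769, chromosome 16 from 16949369 to 16950862), had 98 and 98 in WT, 225 and 200 upon *Trdn-as* KO and 96 and 118 upon *Mettl3* KO (log2 difference 1.11, SE 0.23, adjusted p = 0.0076). The zinc finger gene *Zfp30* (ENSMUSG00000047473, chromosome 7 from 29483144 to 29484289) had 127 and 138 in WT, 285 and 236 upon *Trdn-as* KO and 178 and 154 upon *Mettl3* KO (log2 difference 0.96, SE 0.21, adjusted p = 0.013). *St3gal4*, a sialyltransferase named here after its values were seen, had the highest signal of all higher peaks, with 407 and 455 in WT and 682 and 664 upon *Trdn-as* KO (log2 difference 0.64). Without the second *Trdn-as* KO library the log2 differences were 1.75 at *Gm38293*, 1.19 at *Sdf2l1*, 1.1 at *Zfp30* and 0.66 at *St3gal4*. With only the 4 libraries of WT and *Trdn-as* KO, *Gm38293* passed limma's threshold (adjusted p = 0.0268). *Sdf2l1* (0.173), *Zfp30* (0.288) and *St3gal4* (0.599) did not.

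Other higher promoter peaks started from almost no signal in WT, and those of *Lefty1* and *Snap91* do not cover the transcription start. *Itga11*, a collagen-binding integrin, had 5 and 9 in WT, 32 and 43 upon *Trdn-as* KO and 42 and 32 upon *Mettl3* KO (log2 difference 2.30, adjusted p = 0.0018). *Lefty1*, a secreted antagonist of TGF-beta family signals, had 7 and 4 in WT, 49 and 53 upon *Trdn-as* KO and 2 and 3 upon *Mettl3* KO (log2 difference 3.04, adjusted p = 0.014). *Snap91*, a clathrin assembly protein, had 0 and 4 in WT, 19 and 45 upon *Trdn-as* KO and 5 and 6 upon *Mettl3* KO (log2 difference 3.76, adjusted p = 0.026). Its log2 difference was 2.60 without the first WT library and 4.92 without the second. At *Itga11* the *Mettl3* KO libraries were as high as *Trdn-as* KO, and at *Lefty1* and *Snap91* they were as low as WT. Of the remaining genes named by the rule, the lncRNA genes *4933439K11Rik* (50 and 50 in WT, 132 and 140 upon *Trdn-as* KO) and *AC141882.1* (35 and 39, then 119 and 88), the pseudogene *Gm6345* (54 and 70, then 164 and 128) and *Gm48717* (53 and 41, then 107 and 122) each rose, with log2 differences between 1.22 and 1.45. Without the second *Trdn-as* KO library none of these 7 promoters passed (adjusted p from 0.103 at *Gm6345* to 0.512 at *Snap91*), and *Lefty1* (0.0723), *Snap91* (0.0637) and *AC141882.1* (0.0711) did not pass without the first either.

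The 6 distal decreases with the smallest adjusted p fell to values of 12 or less. The peak 7690 nt from *Elovl7*, a fatty acid elongase gene (chromosome 13 from 108429490 to 108430324), had 75 and 72 in WT, 7 and 4 upon *Trdn-as* KO and 120 and 134 upon *Mettl3* KO (log2 difference -3.56, SE 0.35, adjusted p = 4.2e-11). It is the middle one of 3 lower peaks within 5784 nt, which were all the peaks tested there. The peak 40117 nt from *Malt1*, a paracaspase gene of NF-kappaB signalling (chromosome 18 from 65651831 to 65652679), had 82 and 79 in WT, 7 and 6 upon *Trdn-as* KO and 114 and 77 upon *Mettl3* KO (log2 difference -3.44, SE 0.35, adjusted p = 1.3e-10). The peak 19631 nt from *Hnrnpa3*, which encodes an RNA-binding protein (chromosome 2 from 75469793 to 75470156), had 38 and 55 in WT and 1 and 2 upon *Trdn-as* KO (log2 difference -4.25, SE 0.47, adjusted p = 1.7e-09).

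Within genes, 3 peaks of *Lmo7*, which encodes a LIM domain protein of cell junctions, fell on chromosome 14 between 102104418 and 102110886, and they were all the peaks tested in that span. The first had 54 and 100 in WT, 7 and 12 upon *Trdn-as* KO and 102 and 125 upon *Mettl3* KO (log2 difference -2.87, SE 0.34, adjusted p = 3.3e-08), the second 64 and 66 against 21 and 10, and the third 112 and 146 against 63 and 55. A peak in *Pde11a*, a cyclic nucleotide phosphodiesterase gene (chromosome 2 from 76116606 to 76117336), had 57 and 58 in WT and 8 and 2 upon *Trdn-as* KO. The peak 26955 nt from *Ttc34* on chromosome 4 had 48 and 43 in WT, 5 and 8 upon *Trdn-as* KO and 91 and 82 upon *Mettl3* KO. The 6 distal decreases named by the rule passed without either *Trdn-as* KO library, but without the second neither the other 2 *Lmo7* peaks (adjusted p = 0.137 and 0.225) nor the other 2 *Elovl7* peaks (0.123 each) did.

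The following distal decreases were named after their values were seen. Ranked by size, the largest distal decrease was that of a peak 35203 nt from *Ncapg2*, a condensin subunit gene, with 27 and 21 in WT and 0 and 0 upon *Trdn-as* KO (adjusted p = 0.014, and 0.123 without the second *Trdn-as* KO library). The centre of a peak of 9387 nt lies 2350 nt from *Tnnt2*, the cardiac troponin T gene, so this peak reaches into the gene. It had 1294 and 1491 in WT and 1084 and 839 upon *Trdn-as* KO (log2 difference -0.54, SE 0.13, adjusted p = 0.035). In *Mylk4*, a myosin light chain kinase gene, the values were 479 and 491 in WT and 311 and 183 upon *Trdn-as* KO (log2 difference -1.02). *Itpkb*, an inositol trisphosphate kinase gene, had 846 and 894 against 612 and 483. *Zbtb16*, which encodes a zinc finger transcription factor, held 4 lower peaks, with log2 differences from -1.38 to -0.94. Without the second *Trdn-as* KO library none of these passed, with adjusted p from 0.0933 at *Mylk4* to 0.508 at a *Zbtb16* peak. A peak 40718 nt from *Nub1* had 428 and 431 in WT and 261 and 206 upon *Trdn-as* KO (log2 difference -0.89, SE 0.17, adjusted p = 0.0026). Its log2 difference was -0.72 without the second *Trdn-as* KO library, and it did not pass with only 4 libraries (adjusted p = 0.285, limma).

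At the distal increases the WT values were between 0 and 60. In *Gm36210* (chromosome 7 from 4902832 to 4903676) the values were 19 and 22 in WT, 150 and 112 upon *Trdn-as* KO and 22 and 14 upon *Mettl3* KO (log2 difference 2.61, SE 0.35, adjusted p = 1.4e-06). The peak 1586 nt from *Marveld2*, which encodes the tight junction protein tricellulin, had 4 and 2 in WT, 77 and 51 upon *Trdn-as* KO and 6 and 3 upon *Mettl3* KO (log2 difference 4.04, SE 0.65, adjusted p = 9.9e-05). A peak in *Rabepk*, a Rab effector gene, had 60 and 60 in WT, 197 and 159 upon *Trdn-as* KO and 67 and 56 upon *Mettl3* KO (log2 difference 1.54, adjusted p = 2.4e-04). The peak 17587 nt from *Ncstn*, a gamma-secretase subunit gene, had 4 and 4 against 62 and 33, and the peak 15115 nt from *Hps1*, a gene for lysosome-related organelles, 1 and 5 against 25 and 43. Peaks in *Nxpe2* (4 and 0 in WT, 73 and 49 upon *Trdn-as* KO) and *Nxpe4* (4 and 1, then 89 and 63) lie on chromosome 9 within 424040 nt of the lower *Zbtb16* peaks. *Gm36210* and *Rabepk* passed without either *Trdn-as* KO library.

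Peaks close to 0 in one genotype were counted separately, by a rule chosen after the values were seen. At 13 peaks both *Trdn-as* KO libraries were at or under the value of 3 reads while both WT libraries had 20 or more. At 7 peaks it was the other way round. The rule nearly fixes the outcome of the test at these peaks, so the numbers that passed are not read as a result. Next to the peaks at *Nxpe2*, *Nxpe4* and *Marveld2*, these 7 included the promoter peaks of *Eif3j2*, a translation initiation factor gene (0 and 1 in WT, 71 and 55 upon *Trdn-as* KO), of *Atp6v0c-ps2* (1 and 0, then 57 and 53; adjusted p = 0.0673) and of *Gm15956* (1 and 1, then 24 and 22; adjusted p = 0.286), and a peak in *Plet1* (0 and 2, then 52 and 31; adjusted p = 0.0896). The *Mettl3* KO libraries had at most 6 at these 7 peaks. Fitted log2 differences of such peaks depend on the pseudocount and understate the change.

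The 134 peaks lay at 98 places more than 1000000 nt apart. At 76 of them 1 peak differed, and 22 held the other 58. The peaks moved in the same direction at 18 of these 22 places. The largest group, on chromosome 9 over 424040 nt, held 2 higher peaks (*Nxpe4*, *Nxpe2*) and 4 lower ones (*Zbtb16*) among 23 tested. On chromosome 1 over 397185 nt, the promoter and 2 distal peaks of *Olfml2b* fell and *Gm6345* rose, among 12 tested peaks. Both directions also occurred on chromosome 1 at *Itpkb*, *Gm38293*, *Lefty1* and *Gm5533*, and on chromosome 7 at *Lgals4*, *Zfp30* and *Zfp383*. By chromosome, between 0.0451% (chromosome 15, 1 of 2215) and 0.521% (chromosome 9, 15 of 2877) of the tested peaks differed. Chromosome 10, which carries the *Trdn-as* edit, had 2 of 2716 outside the *Trdn* interval (0.0736%).

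CTCF, measured in other libraries of the same genotypes, moved with RNA polymerase II at many of these peaks. Of the 134 peaks, 112 were tested for CTCF, and CTCF differed at 25 of them (22.3%), against 142 of 39811 peaks (0.357%) that were tested for both and where RNA polymerase II did not differ. Over all autosomal peaks outside the *Trdn* interval, 297 of 59336 CTCF peaks differed (0.501%). At all 25 peaks CTCF and RNA polymerase II moved in the same direction, 17 lower and 8 higher. At the peak near *Elovl7* the CTCF value was 15 and 14 in WT and 2 and 2 upon *Trdn-as* KO, at *Olfml2b* it was 26 and 30 against 10 and 10, and at the peak near *Marveld2* 1 and 2 against 25 and 27. The IgG value, from 1 library per genotype, was 48 in WT and 7 upon *Trdn-as* KO near *Elovl7*. It was 41 and 26 at *Olfml2b* and 10 and 0 near *Marveld2*. The sign of the CTCF difference was that of RNA polymerase II at 97 of 112 peaks (86.6%), and at 57.0% of the tested peaks where RNA polymerase II did not differ. At *Hist1h2al* CTCF had 24 and 18 in WT and 14 and 21 upon *Trdn-as* KO (adjusted p = 0.713), so no CTCF difference passed the threshold there. With only the 4 CTCF libraries of WT and *Trdn-as* KO, 12 CTCF peaks passed over all autosomes, and leaving out 1 CTCF library left between 0 and 14. The 0 calls arose without the first or the second WT library, where 6334 and 4685 peaks had an unadjusted p below 0.05 in limma. The paper's methods describe reactions with either antibody that received sheared, pooled chromatin. They do not say which CTCF and RNA polymerase II libraries shared a preparation.

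The IgG libraries give the background, with 1 library per genotype and so no spread. At the 32 lower peaks with a mean below 10 upon *Trdn-as* KO, the RNA polymerase II values summed to 1205 and 1194 in WT and 146 and 114 upon *Trdn-as* KO. The IgG value there was 526 in WT (207 reads) and 324 upon *Trdn-as* KO (49 reads), and over all autosomal peaks 2049039 and 1769315. At the 11 higher peaks with a mean below 10 in WT, RNA polymerase II summed to 33 and 50 in WT and 542 and 497 upon *Trdn-as* KO, and IgG to 112 in WT (44 reads) and 139 upon *Trdn-as* KO (21 reads). After subtraction of the scaled IgG value, 0 peaks passed limma's adjusted threshold and 6955 had an unadjusted p below 0.05.

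The weakly enriched second *Trdn-as* KO library differed from the first in a way that depended on signal. At peaks with a mean value of 50 to 100, the median log2 difference to the WT mean was 0.04 in the first library and -0.30 in the second. At 200 to 500 it was 0.13 and -0.21, at 1000 or more 0.08 and -0.20, and below 10 both were above 0, with 0.07 and 0.08. The WT libraries differed from each other by medians of 0.09 at 50 to 100 and 0.01 at 1000 or more. The second library was below the first at 46.9% of the peaks under 10, at 79.4% of those from 50 to 100 and at 98.5% of those of 1000 or more. The share of signal outside promoter peaks was 22.1% in the first and 23.6% in the second library of that genotype, and 22.8% and 23.5% in WT. The genotypes differed by -0.31 percentage points (22.9% ± 1.12 against 23.2% ± 0.45, SD, n = 2 each; two-sided exact permutation test, p = 1, where 0.33 is the smallest p that 2 against 2 libraries allow). With IgG subtracted the shares were 20.2% and 21.1% in WT and 19.4% and 19.2% for *Trdn-as* KO, a difference of -1.37 points without overlap. At peaks with a value of 50 or more in 2 libraries they were 14.9% and 15.5% against 14.4% and 14.4%, again without overlap. No p below 0.33 is possible for either.

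**Figure D1:**
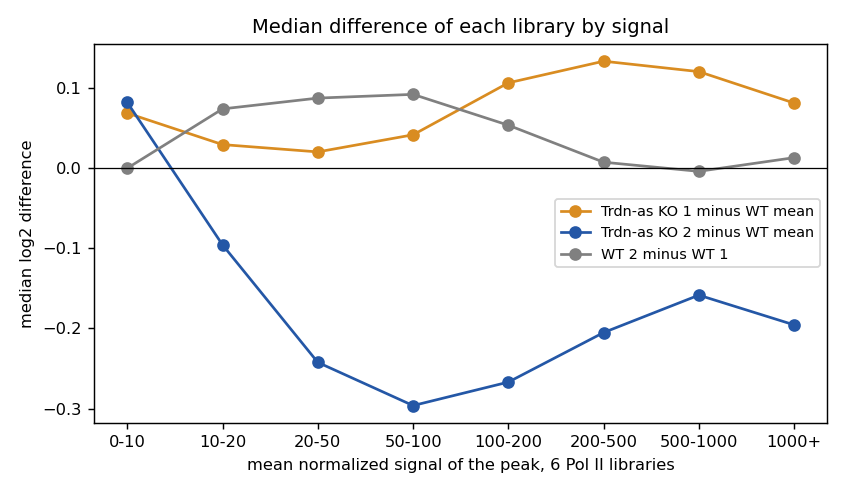
Median log2 difference (y axis) over tested autosomal peaks, grouped by the mean normalized signal of the peak in the 6 RNA polymerase II libraries (x axis). Lines show each *Trdn-as* KO library minus the WT mean and the second WT library minus the first. The second *Trdn-as* KO library runs from 0.08 at peaks below 10 to -0.30 at 50 to 100, and the first stays between 0.02 and 0.13.

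At the 107 lower peaks the median log2 difference to the WT mean was -1.26 in the first and -1.81 in the second library, and the second was the lower of the pair at 77. At the 27 higher peaks the medians were 1.75 and 1.84, and the second was the lower at 16. Over all tested peaks the second was the lower at 66.8%. The 19 lower peaks with a mean of 200 or more, 10 of them between 200 and 500, included those of *Myh6*, *Txnip*, *Per1*, *Lrrc10* and *Ankrd1*. There the second library was below the first at all 19, as at 97.3% to 98.9% of all peaks in these signal groups, the median differences were -0.51 and -0.99, and 4 of the 19 passed without the second library. At *Myh6* the first library was 0.16 below the WT mean on the log2 scale and the second 0.54, and at *Txnip* 0.37 and 0.71. Without the second library the median over all tested peaks moved from -0.07 to 0.08, and 6 promoters not among the 134 passed, among them those of *Nppb*, *Josd2*, *Stt3a*, *Pknox2* and *Socs2*, all with higher values in the first *Trdn-as* KO library (named after their values were seen). *Nppb*, the natriuretic peptide gene, had 673 and 706 in WT and 941 and 739 upon *Trdn-as* KO. Without the first library, 1750 peaks passed that were not among the 134.

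**Figure D2:**
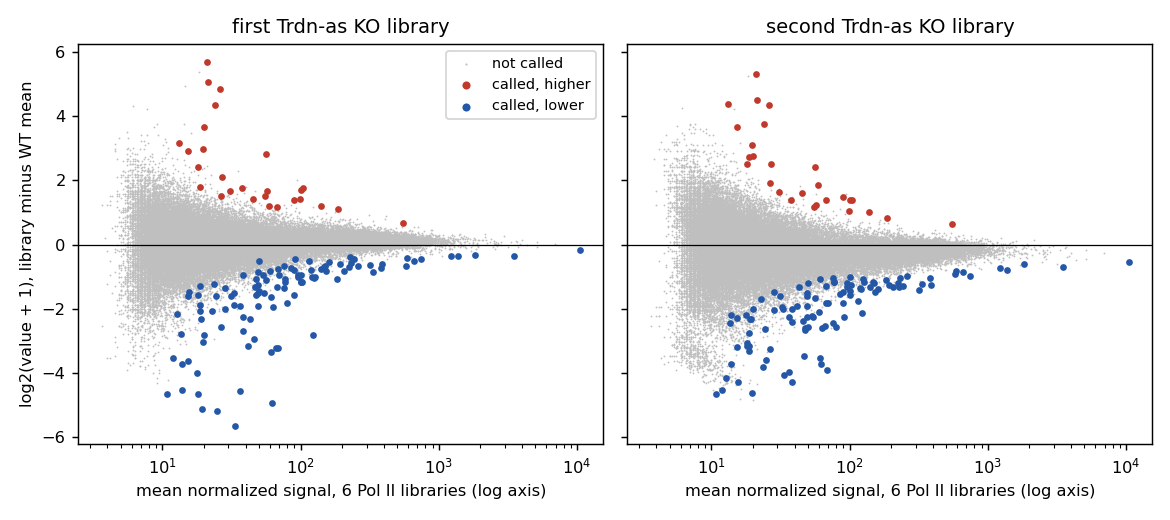
Log2 difference of the first (left) and second (right) *Trdn-as* KO library to the WT mean (y axis, log2(value + 1) scale) against the mean normalized signal in 6 libraries (x axis, log axis) for all 51794 tested autosomal peaks. Red points are the 27 higher and blue points the 107 lower peaks. In the right panel the grey cloud lies below 0 at intermediate and high signal, where the second library had medians of -0.30 (50 to 100) and -0.20 (1000 or more).

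Scaling changed the balance of directions. Of the 134 peaks 20.1% were higher. With quantile normalization it was 36.6% of 407, with cyclic loess normalization, which removes differences that depend on signal, 31.7% of 382, and with the median of ratios over promoter peaks 29.1% of 381. Scaled to uniquely mapped reads it was 2.8% of 107, and this scaling moved the median of all tested peaks to -0.65. Of the 134 peaks, 55 passed under all 4 other scalings, 52 of them lower and 3 higher. *Olfml2b*, *Ceacam1*, *Ogdhl* and the 6 distal decreases named by the rule were among the 55. With uniquely mapped reads the log2 differences shrank to 0.98 at *Gm38293*, 0.51 at *Sdf2l1*, 0.37 at *Zfp30* and 0.04 at *St3gal4*. None of these increases passed there (adjusted p from 0.373 to 0.957, limma). *Ankrd1*, *Txnip* and *Per1* passed with quantile and cyclic loess normalization, and did not with uniquely mapped reads (adjusted p = 0.22, 0.257 and 0.296, limma), where their log2 differences were -1.32, -1.14 and -1.07. *Myh6* has the highest value of every RNA polymerase II library, which quantile normalization sets equal, so that setting gives no value for it. It passed with cyclic loess (log2 difference -0.43) and had -0.95 with uniquely mapped reads (adjusted p = 0.307).

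The gene lists give the cardiac pathways around *Trdn-as*, with 1 promoter peak per gene, the one with the most signal. Over all genes with a symbol, 40 of 15167 such peaks differed (0.264%) and the median log2 difference was -0.04. In the list of calcium release and reuptake, which holds the partners of triadin, 0 of 17 tested genes passed in either direction, and the median was 0.05. *Pln*, the inhibitor of the calcium pump, had the highest signal of this list, with 4668 and 4824 in WT and 4678 and 3404 upon *Trdn-as* KO (log2 difference -0.25, adjusted p = 0.49). *Jph2*, which anchors the dyad, had 818 and 891 against 763 and 564, and *Cacna1c*, the calcium channel of the dyad, 965 and 960 against 841 and 641 (adjusted p = 0.45 and 0.41). At *Jph2* and *Cacna1c* both *Trdn-as* KO libraries were below both WT libraries, and at *Pln* they overlapped WT. Of the 17 genes, 3 had an unadjusted p below 0.05, and none passed limma's adjustment. Over all genes by their strongest promoter peak 836 of 15167 had such an unadjusted p. In the daily clock list it was 5 of 19, in the sarcomere list 4 of 19 and in the fetal and stress list 3 of 13.

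In the sarcomere and Z-disc list 1 of 19 genes, *Myh6*, was lower and none higher, with a median of -0.06. *Tnnt2* had 3260 and 3522 in WT and 3203 and 2203 upon *Trdn-as* KO at its promoter (adjusted p = 0.24). *Myoz2* and *Myom2* have a weaker promoter peak that passed, with 41 and 41 against 17 and 2 and 56 and 87 against 38 and 14, but their strongest peak did not (adjusted p = 0.45 and 0.51). The weaker peaks are 578 and 1138 nt long, with centres 4854 and 4115 nt from the start, and do not reach it. Without the second *Trdn-as* KO library the weaker peaks did not pass either (adjusted p = 0.421 and 0.503), and their log2 differences went from -2.52 to -1.22 and from -1.55 to -0.86. Of 13 fetal and stress cardiac genes, *Ankrd1* was lower and none was higher, and the median was 0.08. *Myh7*, the fetal myosin heavy chain, had 4531 and 4807 in WT and 4451 and 3581 upon *Trdn-as* KO (adjusted p = 0.56). The highest log2 difference of that list was that of *Cilp*, a matrix protein gene, with 1 and 6 in WT and 6 and 10 upon *Trdn-as* KO (adjusted p = 0.78).

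In the daily clock list *Per1* was lower and none of 19 genes was higher. The median was -0.25, and both *Trdn-as* KO libraries lay below both WT libraries in 9 of 19 genes and above in 2, against 14.2% and 11.8% of all genes by their strongest promoter peak. In the ion channel and connexin list this was so in 6 of 15 and 0, and in the sarcomere list in 6 of 19 and 0. In the calcium list it was so in 2 of 17 and 5, in the adrenergic list in 1 of 12 and 4 and in the heat shock list in 1 of 14 and 3. In the fetal and stress list it was 4 of 13 and 3, and in the immediate early list 5 of 20 and 2. Fatty acid genes had 5 of 20 and 2, and transcription factors 2 of 19 and 2. Interferon genes had 2 of 14 and 1, and factors of pausing, elongation and termination 2 of 18 and 0. Glycolysis genes had 0 of 13 and 0, and skeletal muscle isoforms 0 of 6 and 1. Oxidative phosphorylation genes had 0 of 16 and 1, and integrated stress response genes 0 of 9 and 1. *Dbp*, a clock output gene, had 3291 and 3501 in WT, 3267 and 2482 upon *Trdn-as* KO and 1710 and 1650 upon *Mettl3* KO (adjusted p = 0.55 for *Trdn-as* KO). *Per2* had 302 and 302 against 242 and 200, *Ciart* 467 and 536 against 407 and 291, and *Arntl*, the activator that peaks opposite *Dbp*, 204 and 185 against 296 and 238, and none of these passed. The time of day at which each heart was taken is not stated, and its part was not tested.

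No gene passed among 19 cardiac transcription factors (median -0.04), 15 ion channels and connexins (-0.15), 12 genes of adrenergic signalling (0.04), 20 immediate early genes (-0.11) and 14 heat shock genes (-0.01). The same held for 20 genes of fatty acid oxidation (-0.14), 13 of glycolysis (0.01), 16 of oxidative phosphorylation (0.01), 9 of the integrated stress response (0.04) and 14 of the interferon response (-0.09). It also held for 6 skeletal muscle isoform genes (-0.11) and 18 factors of pausing, elongation and termination (-0.11). All of these are limma's counts at an adjusted p below 0.05, and between 0 and 2 genes of each list had an unadjusted p below 0.05. Of the members with the most signal, *Mef2d* had 1769 and 1825 in WT and 1894 and 1470 upon *Trdn-as* KO, *Junb* 2000 and 1984 against 1916 and 1625, *Hspa8* 1219 and 1093 against 1192 and 1071, and *Fabp3* 2463 and 2556 against 2550 and 2062. *Gja1*, which encodes connexin 43, had 1348 and 1436 against 1251 and 947 (adjusted p = 0.40). Values of the other lists were those of *Adcy6* (907 and 982 against 999 and 770), *Eno3* (1679 and 1730 against 1902 and 1419), *Ckmt2* (829 and 906 against 935 and 753) and *Ddit3* (1465 and 1413 against 1713 and 1421). *Irf1* had 426 and 444 against 484 and 375, *Mylpf* 267 and 273 against 298 and 208, and *Polr2a*, the gene of the immunoprecipitated subunit, 1488 and 1325 against 1476 and 1470. The first *Trdn-as* KO library was above both WT libraries at *Mef2d*, *Adcy6*, *Eno3*, *Ckmt2*, *Ddit3*, *Irf1* and *Mylpf*, and the second was below both at all of these but *Ddit3*.

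Markers of cell types were summed over their strongest promoter peaks. The 10 cardiomyocyte markers summed to 30569 and 32575 in WT and 31104 and 23783 upon *Trdn-as* KO, with *Myh6* the only one that passed. The 12 fibroblast markers summed to 1297 and 1353 in WT and 1829 and 1342 upon *Trdn-as* KO, with a median log2 difference of 0.29, and at 5 of them both *Trdn-as* KO libraries were above both WT libraries and at 0 below, against 11.8% and 14.2% of all genes. In the same order the genes without overlap were 0 and 2 of 10 cardiomyocyte, 1 and 2 of 10 endothelial, 0 and 1 of 10 mural, 1 and 2 of 11 macrophage and leukocyte, 0 and 1 of 4 adipocyte and 1 and 0 of 1 erythroid markers. None of the 12 fibroblast markers passed limma's adjusted threshold, and 2 had an unadjusted p below 0.05. *Col3a1* had 78 and 96 against 131 and 92 (adjusted p = 0.80) and *Tcf21* 231 and 247 against 347 and 287 (adjusted p = 0.58). The 10 tested endothelial markers summed to 3189 and 3392 against 3765 and 3105, the 10 mural markers to 1447 and 1573 against 1610 and 1099, the 11 macrophage and leukocyte markers to 381 and 427 against 395 and 277, and the 4 adipocyte markers to 1193 and 1267 against 1127 and 874. Of 8 erythroid markers *Tfrc* alone was tested (351 and 335 against 410 and 366), and the globin genes had no promoter peak. Among the higher promoters, *Itga11* and a second, weaker peak of *Col3a1* (10 and 36 in WT, 45 and 71 upon *Trdn-as* KO) belong to genes of fibroblasts, and the part of the fibroblast share in them was not tested. The *Col3a1* call was lost without the first (adjusted p = 0.103) or the second *Trdn-as* KO library (0.59) and without the first WT library, where its log2 difference went from 1.51 to 0.64, against 2.39 without the second WT library.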

How the data were processed

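RNA polymerase II, CTCF and IgG ChIP-seq libraries (72-bp single-end) of mouse ventricles were analysed from the table of union peaks, and the input libraries were not used here. Per the labels and methods, the authors trimmed reads with Trimmomatic 0.39, aligned them to GRCm39 (mm39) with STAR 2.7.11b, removed duplicates with Picard 3.1.1 as well as spliced and multi-mapping reads, called peaks with MACS and counted reads with featureCounts. The deposited values are signal normalized with DESeq2 1.36.0, rounded to whole numbers, so count models were not used. The value of 1 read was estimated from the spacing of the values, and uniquely mapped reads came from the study's reporting summary. A value of 0 allows up to 3 reads, a limit for counting error only.

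Peaks that reached 10 in 2 or more of the RNA polymerase II libraries were tested on log2(value + 1) with limma 3.58.1 in R 4.3.3, with genotype as the model term, a trend of the variance on signal, and p-values adjusted by Benjamini-Hochberg at 0.05. Fold changes on this scale understate low peaks. The filter also lets in peaks that are high in only one genotype. Each library came from 2 pooled hearts, and nothing states that libraries of a genotype are from separate hearts, so the p-values measure the spread between libraries, which may be technical. The test was tried on simulated data. Python 3.11.15 (pandas 2.3.3, numpy 2.4.6, scipy 1.17.1, matplotlib 3.10.9) served for the rest.

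The members and lists were chosen with earlier results of these data known. Named peaks were the 10 promoter and 6 distal peaks with the smallest adjusted p in each direction, 1 per gene, whose *Trdn-as* KO and WT values did not overlap, and in each gene list up to 3 called genes and the one with the most signal. Distal peaks carry the name of the gene they lie in or of the nearest coding gene, with distances measured from the peak centre to the gene. Of 11107 promoter peaks without a symbol, 9277 were named by gene ID from GENCODE M21. Alternatives were other scalings, filters, pseudocounts and variance models, IgG subtraction, a replicate block and leaving out each library. Some items are not reported here.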

Additional observations from a re-analysis of the deposited data

How the results depend on the processing

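Among the peaks named, 256 results under an alternative lost their adjusted p, 20 gained it and none that was called changed direction. Only another scaling or IgG subtraction could have changed a direction. The counts below are autosomal peaks in the order higher, lower, promoter, distal, against 27, 107, 60 and 74. They were 12, 14, 11 and 15 without the *Mettl3* KO libraries, 3, 104, 37 and 70 when scaled to uniquely mapped reads, 149, 258, 257 and 150 with quantile normalization, 121, 261, 248 and 134 with cyclic loess normalization, and 111, 270, 227 and 154 with the median of ratios over promoter peaks. At an adjusted p below 0.01 they were 10, 46, 26 and 30. A pseudocount of 5 or 20 gave 47 or 49 higher peaks. Without the filter (6327 peaks with an unadjusted p below 0.05) or with IgG subtracted (6955), limma called 0, 0, 0 and 0. Without a variance trend it called 1, 0, 1 and 0, the 1 being the promoter peak of *Pik3c3* (0 and 0 in WT against 19 and 18), named after its value was seen. The cause of these changes was not tested. Leaving out each library in turn gave 2 to 23 higher, 8 to 1844 lower, 3 to 1216 promoter and 7 to 651 distal peaks, the highest lower, promoter and distal counts without the first *Trdn-as* KO library. Without 1 library of a genotype the other is assumed to vary like the rest.

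The labels number the libraries 1 and 2 in each genotype. Deviations of same-numbered libraries did not correlate (r from -0.0096 to -2e-04), so the numbers are taken to share only a number. With a replicate block, 173 peaks passed, 130 of them among the 134, so no count of RNA polymerase II peaks moved by over 1.5 times. CTCF counts moved from 297 to 188 with the block and to 12 without the *Mettl3* KO libraries, and to 0 to 14 without each CTCF library. The difference in the share outside promoters ran from -1.37 percentage points with IgG subtracted, where the genotypes did not overlap, to 0.49 without the first *Trdn-as* KO library, and 2 against 2 libraries cannot pass a test.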
